A study of Mus musculus with 9 samples.

Results

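Potassium channel genes, called outside parietal cells because 4 genes of those cells were left out, were followed across adjoining zones of the mouse stomach. The members were the probe sets that the array annotation gives a single gene symbol starting with Kcn, leaving out Kcne2, Kcnq1, Kcnj15 and Kcnj16. This rule uses names and no measured value, and it found 160 of the 45101 probe sets on the array, for 80 of 18194 named genes. The left-out genes had 7 probe sets. Whether parietal cells also express some of the members was not tested. The tissue came from 9 healthy, untreated female C57Bl/6 mice aged 3 months. A strip about 600 to 800 µm wide was cut from each zone of each stomach, and the strips of 3 mice were pooled before RNA extraction, giving 3 series. Every series has 1 array of the squamocolumnar junction (called junction here), 1 of the forestomach and 1 of the corpus, 9 arrays in all. The junction is the line in the rodent stomach, at the limiting ridge, where stratified squamous epithelium meets columnar glands, the forestomach is lined by squamous epithelium alone, and the corpus by acid-secreting glands. Each array thus stands for a pool of 3 animals and hides the spread between single mice. Array numbers 1 to 3 below are the replicate numbers of the sample titles, taken here as the series.

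Potassium channels let potassium leave cells and so set the resting voltage, end action potentials and recycle the potassium that pumps and cotransporters bring in. Voltage-gated channels open on depolarisation, calcium- and sodium-activated channels on a rise of those ions, inward rectifiers pass current best near the resting voltage, and two-pore-domain channels leak at all voltages. In the stomach wall, smooth muscle, enteric nerves and epithelium each use their own set, and acid secretion by parietal cells needs a potassium supply from the genes left out here.

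The zones differed in the cells they held, which touches every comparison. The basal squamous keratin Krt5 had signals of 4705, 5861 and 6392 on the junction arrays, 4727, 5841 and 5266 on the forestomach arrays and 201, 78.1 and 170.0 on the corpus arrays, so the junction strips held squamous epithelium and the corpus strips little. The gastric intrinsic factor gene Cblif, made by chief cells in the mouse, had 13020.2, 10263 and 12089.5 on the junction arrays, 1.8, 227 and 458 on the forestomach arrays and 16128, 15159 and 11459.5 on the corpus arrays, so the junction strips also held glands, and forestomach arrays 2 and 3 held more gland transcript than array 1. The labels call the tissue epithelium, but the 14 smooth muscle markers (Myh11, Acta2 and others) were all measured in all 3 zones, with summed signals of 34777 to 40358 on the junction arrays, 81202 to 88393 on the forestomach arrays and 30646 to 43240 on the corpus arrays. In bulk tissue, fewer cells of a type and less RNA per cell cannot be told apart. The median signal was 47.9 to 57.1 per array, all arrays share a trimmed mean of 200.0, and their number limits the precision. The labels give each series as a pool of its own, so p-values measure the spread between pools.

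A probe set was tested if its signal lay above its own array's 40th percentile (29.0 to 36.5) on at least 3 arrays, and a difference was called where limma's Benjamini-Hochberg adjusted p, taken over all 29511 probe sets tested, was under 0.05. Of the 160 member probe sets, 82 were tested, for 52 genes. The other 78 had a median signal of 9.1 and a highest one of 84.8. Among those tested, 26 were above the filter level on all 9 arrays and 6 only on the 3 arrays of 1 zone, so that their passing depended on the zone in which they were high. For all 6 that zone was the forestomach, and 5 of them were called higher there than in corpus, which leaves 24 higher and 22 lower among the other 76. In forestomach against corpus, 29 of the 82 were higher (35.4%, against 25.2% of all probe sets tested) and 22 were lower (26.8%, against 27.6%). In junction against corpus, 4 were higher (4.88%, against 9.14%) and 9 were lower (11%, against 9.93%). With each array centred on its median in place of its trimmed mean, this last split was 4 higher and 5 lower for the members, and 3129 and 1577 in place of 2696 and 2929 for all probe sets. In junction against forestomach, 21 were higher (25.6%, against 17.3%) and 29 were lower (35.4%, against 20%). The median log2 difference over the 82, in which those high in 1 zone only are included, was 0.24 for forestomach minus corpus (all probe sets -0.04), -0.19 for junction minus corpus (all -0.10) and -0.31 for junction minus forestomach (all -0.05). The 3 comparisons share their arrays, so their counts are not independent of each other.

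The calls in forestomach against corpus were also counted by class of channel. Among the voltage-gated pore subunits, 12 of 24 tested probe sets were higher in the forestomach and 0 lower at an adjusted p under 0.05, and 10 of 22 without those that passed the filter through the forestomach alone. The calcium- and sodium-activated channels had 7 higher and 4 lower of 14 (5 higher of 12 without such probe sets), and the KCNQ and EAG pore subunits 2 higher and 3 lower of 8. The accessory subunits of voltage-gated channels had 2 higher and 2 lower of 11. The inward rectifiers had 2 higher and 4 lower of 8 (1 higher of 7 without 1 such probe set), and the two-pore-domain channels 2 higher and 8 lower of 12. The remaining 5 probe sets were of the non-coding Kcnq1ot1, with 2 higher and 1 lower. Beside these counts, 25.2% of all probe sets tested were higher and 27.6% lower. Differences between classes, or of a class from those shares, were not tested, and each class holds few probe sets. With each gene read from 1 tested probe set, the one whose log2 values averaged highest, 18 genes were higher in the forestomach, 13 lower and 21 not called. Of the 19 genes with several tested probe sets, Kcnq1ot1 alone had probe sets called in opposite directions. All values given for a gene below are of its probe set chosen in that way unless another is named, fold changes are differences of log2(signal + 9.8), and such differences understate the change of dim genes. A value after ± is the standard error of the fit, with 3 arrays per zone. Levels are not compared between genes, since each probe set has its own brightness.

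**Figure D1:**
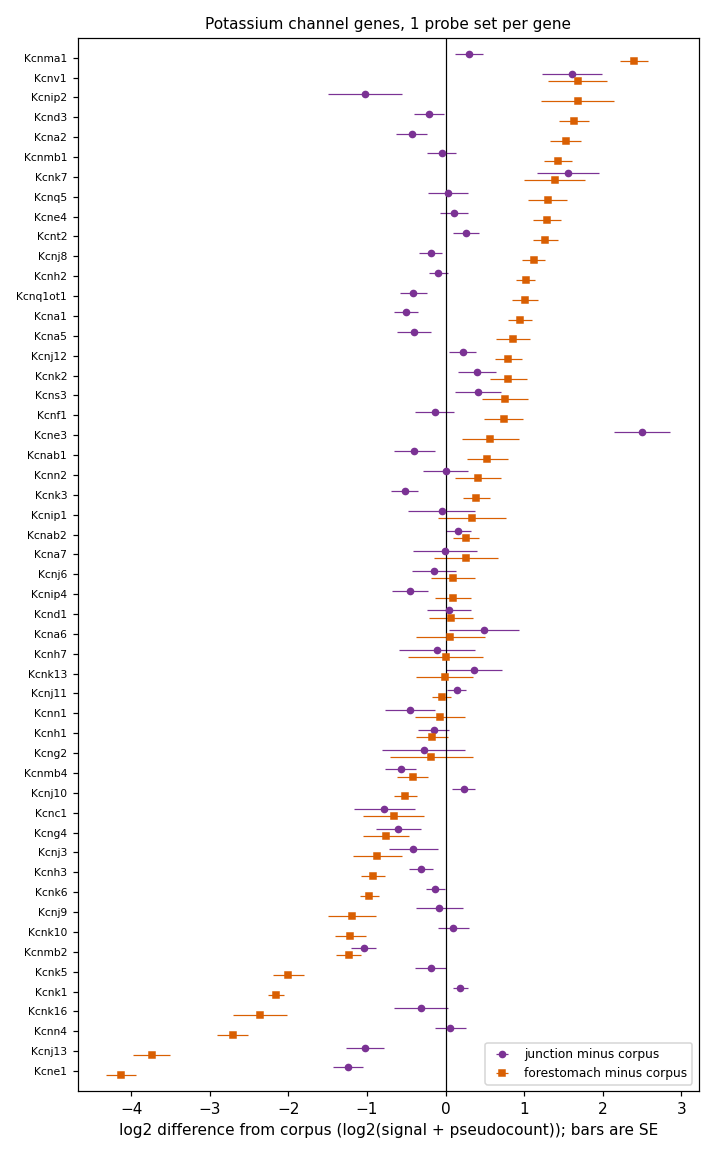
Log2 difference from corpus of 52 potassium channel genes (vertical axis, 1 probe set each) in junction (circles) and forestomach (squares); bars are the standard error of the fit. The genes are ordered by the forestomach difference, from 2.40 for Kcnma1 at the top to -4.13 for Kcne1 at the bottom; most junction circles on the upper side lie near 0, and Kcne3, Kcnk7 and Kcnv1 lie well to the right of it.

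Among the calcium- and sodium-activated channels, 3 of 8 tested genes rose in the forestomach and 2 fell, where 25.2% of all probe sets tested rose and 27.6% fell. Kcnma1 had the largest difference from corpus of the 18 genes that rose. Kcnma1, the pore of the large-conductance calcium-activated (BK) channel, had signals of 157, 136 and 119 on the junction arrays, 647, 587 and 614 on the forestomach arrays and 81.4, 138 and 114 on the corpus arrays. The forestomach arrays stood far above the other 6, by 2.40 ± 0.18 (log2, SE) over corpus (adjusted p = 8.21e-06), and junction minus forestomach was -2.10 (adjusted p = 4.94e-05). All 4 tested Kcnma1 probe sets were called this way, 1 of which (2.09) passed the filter through the forestomach arrays alone, with forestomach minus corpus differences of 0.89 to 2.40. Kcnmb1, the BK accessory subunit typical of smooth muscle, had 111, 136 and 81.2 on the junction arrays, 309, 339.9 and 309.8 on the forestomach arrays and 108, 134 and 97.1 on the corpus arrays. Its forestomach arrays were all above the others, by 1.43 (adjusted p = 2.08e-04) over corpus, and a further probe set gave 1.16. Kcnt2, a sodium-activated channel pore, was dim, with 19.0, 18.5 and 22.8 on the junction arrays, 55.2, 47.9 and 48.9 on the forestomach arrays and 10.8, 21.5 and 14.3 on the corpus arrays, and its difference over corpus was 1.27 (adjusted p = 1.65e-04). It was above the filter level on the forestomach arrays alone.

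Of 13 tested genes for voltage-gated pore subunits, 6 rose in the forestomach and 0 fell (25.2% and 27.6% of all probe sets tested). Kcnd3, a pore subunit of the fast-inactivating A-type current, had 119, 148 and 115 on the junction arrays, 424, 479 and 547 on the forestomach arrays and 130.3, 198 and 127 on the corpus arrays. The lowest forestomach array was far above the highest of any other zone, and the difference over corpus was 1.63 ± 0.19 (log2, adjusted p = 1.09e-04). Both further Kcnd3 probe sets (1.33 and 1.22) were above the filter level on the forestomach arrays alone, so their calls add no support, and the first of them had overlapping arrays and was not called without forestomach array 1 or 3 or without corpus array 1 or 3. Kcnip2, a calcium-binding protein that joins such A-type pores, had 66.0, 12.5 and 7.7 on the junction arrays, 209.9, 152 and 222 on the forestomach arrays and 49.7, 58.6 and 51.3 on the corpus arrays. Forestomach minus corpus was 1.68 (adjusted p = 0.0146), and junction minus forestomach was -2.71 (adjusted p = 0.00214). The second value was -3.35 without junction array 1 and -2.03 with an added constant of 30.9, and without that array the junction was also called lower than corpus (adjusted p = 0.0011). A second Kcnip2 probe set, above the filter level on the forestomach arrays alone, was not called over corpus (0.37). The forestomach call of Kcnip2 was lost when series 2 or series 3 was left out (adjusted p = 0.0648 and 0.0729).

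Kcna2, a delayed-rectifier pore found on axons, had 56.1, 43.3 and 37.0 on the junction arrays, 253, 148 and 225 on the forestomach arrays and 62.7, 60.7 and 69.3 on the corpus arrays. The forestomach arrays were all above the rest, by 1.53 (adjusted p = 2.55e-04) over corpus, and both other probe sets were called too, 1 at 1.70 and 1 that was dim (1.18, adjusted p = 0.042) and was not called with the series number as a block (adjusted p = 0.0533). That dim probe set also lost its call without forestomach array 2 or 3 or any 1 corpus array (adjusted p = 0.0647 to 0.125). Kcna1, which joins Kcna2 on axons, had 48.4, 38.3 and 57.8 on the junction arrays, 157, 141 and 145 on the forestomach arrays and 60.9, 81.1 and 73.7 on the corpus arrays, a difference of 0.95 (adjusted p = 7.29e-04) over corpus. The 3 other tested Kcna1 probe sets were not called over corpus, at 0.60, adjusted p = 0.281, at 0.55, adjusted p = 0.057, and at -0.66, adjusted p = 0.0798. The last of these was dim and lower in forestomach with no overlap of arrays, and it was called lower without forestomach array 1 (adjusted p = 0.0471). Kcna5, a delayed-rectifier pore of muscle, had 29.9, 29.7 and 30.3 on the junction arrays, 85.0, 62.3 and 119 on the forestomach arrays and 31.5, 45.0 and 54.6 on the corpus arrays. Its difference was 0.86 (adjusted p = 0.0105), and without series 1 it was not called (adjusted p = 0.103). Kcnf1, an electrically silent subunit, had overlapping forestomach and corpus arrays, with 69.6, 44.6 and 50.1 on the junction arrays, 109.6, 147 and 76.6 on the forestomach arrays and 51.4, 81.6 and 52.4 on the corpus arrays. Its difference was 0.74 (adjusted p = 0.0358), and the adjusted p was 0.0819 to 0.116 without forestomach array 1 or 2 or corpus array 1 or 3. Kcnq5 and Kcnh2, pores of slow and of ether-a-go-go-related currents that hold the resting voltage of many muscles and neurons, were higher in the forestomach by 1.30 (adjusted p = 0.0023) and 1.02 (adjusted p = 1.52e-04). Kcnh2 had 123, 118 and 103 on the junction arrays, 298, 228 and 251 on the forestomach arrays and 117, 129 and 119.5 on the corpus arrays, so its forestomach arrays did not overlap the others. Kcnq5 had 37.9, 24.7 and 21.7 on the junction arrays, 84.3, 70.6 and 87.1 on the forestomach arrays and 15.2, 38.8 and 30.4 on the corpus arrays. Kcne4, an accessory subunit that damps several voltage-gated pores, had 104, 104 and 82.6 on the junction arrays, 235, 279 and 188 on the forestomach arrays and 81.5, 109 and 78.1 on the corpus arrays, with a forestomach minus corpus difference of 1.29 (adjusted p = 3.40e-04).

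Among inward rectifiers, Kcnj8, the ATP-sensitive pore of vascular and other smooth muscle and of pericytes, had 212, 147 and 157 on the junction arrays, 432, 413 and 454 on the forestomach arrays and 169.9, 216 and 200.1 on the corpus arrays. The forestomach arrays were 413 to 454 and the other 6 reached at most 216. Its difference over corpus was 1.12 (adjusted p = 3.09e-04), and the sulfonylurea receptor Abcc9, with which Kcnj8 forms a channel, differed likewise by 1.14 (adjusted p = 3.61e-05). Kcnj11, the ATP-sensitive pore of endocrine cells and neurons, was called in no comparison, with 371, 428 and 368 on the junction arrays, 303, 341 and 373 on the forestomach arrays and 381, 335 and 338 on the corpus arrays. Kcnj12, a strong inward rectifier, had 23.7, 27.5 and 22.9 on the junction arrays, 46.2, 43.4 and 36.5 on the forestomach arrays and 15.4, 29.0 and 16.9 on the corpus arrays. Its difference over corpus was 0.80 (adjusted p = 0.00401), and the call was lost without series 1 (adjusted p = 0.0684). This probe set was above the filter level on the forestomach arrays alone, so it was tested only because it was high there. The stretch-activated two-pore channel Kcnk2 had 60.2, 32.0 and 48.0 on the junction arrays, 70.7, 65.9 and 54.1 on the forestomach arrays and 43.6, 33.6 and 21.8 on the corpus arrays. Its difference over corpus was 0.80 (adjusted p = 0.0188), and the adjusted p was 0.0514 to 0.061 without forestomach array 1 or 2 or corpus array 3.

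Markers of smooth muscle and of enteric neurons moved with these genes, and those of glia and endothelium did so less or not at all. All 14 smooth muscle markers were called higher in forestomach than in corpus, with a median log2 difference of 1.59, and all 14 were lower in junction than in forestomach, with a median of -1.58. Their sums are given above, and none was below the filter level throughout a zone. Of 16 enteric neuron markers measured, 11 were higher in forestomach than corpus and 0 lower, with summed signals of 1177 to 1480 on the junction arrays, 2700 to 3152 on the forestomach arrays and 1720 to 1933 on the corpus arrays, and 1 marker was below the filter level throughout the junction and 1 throughout the corpus. Of 9 pericyte markers, among them Abcc9, 6 were higher and 0 lower, with summed signals of 6501 to 6844 on the junction arrays, 9826 to 10992 on the forestomach arrays and 6060 to 6436 on the corpus arrays, and 1 was below that level throughout the corpus. Of 10 fibroblast markers 9 were higher and 0 lower, with sums of 24397 to 26102 on the junction arrays, 33007 to 40813 on the forestomach arrays and 18052 to 20679 on the corpus arrays. Enteric glia and Schwann cell markers, 8 measured, had 3 higher and 0 lower, with a median log2 difference of -0.13. Their sums were 1394 to 1524 on the forestomach arrays and 1383 to 1450 on the corpus arrays. Endothelial markers, 11 measured, had 2 higher and 5 lower, with a median of -0.18. Over the 18 member genes higher in the forestomach, whose median difference was 1.28, the junction minus corpus median was -0.07, and over the 14 smooth muscle markers it was 0.03. Those 18 include Kcnt2 and Kcnj12, whose chosen probe sets passed the filter through the forestomach arrays alone. Other marker lists rose in forestomach against corpus as well. All 15 squamous markers measured were higher, with a median log2 difference of 5.32. Of 10 macrophage markers 6 were higher and 0 lower, and of 3 markers of interstitial cells of Cajal 2 were higher and 0 lower. The part of RNA from muscle, nerve, pericytes, fibroblasts or these other cells in the results on these 18 genes was not tested.

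**Figure D2:**
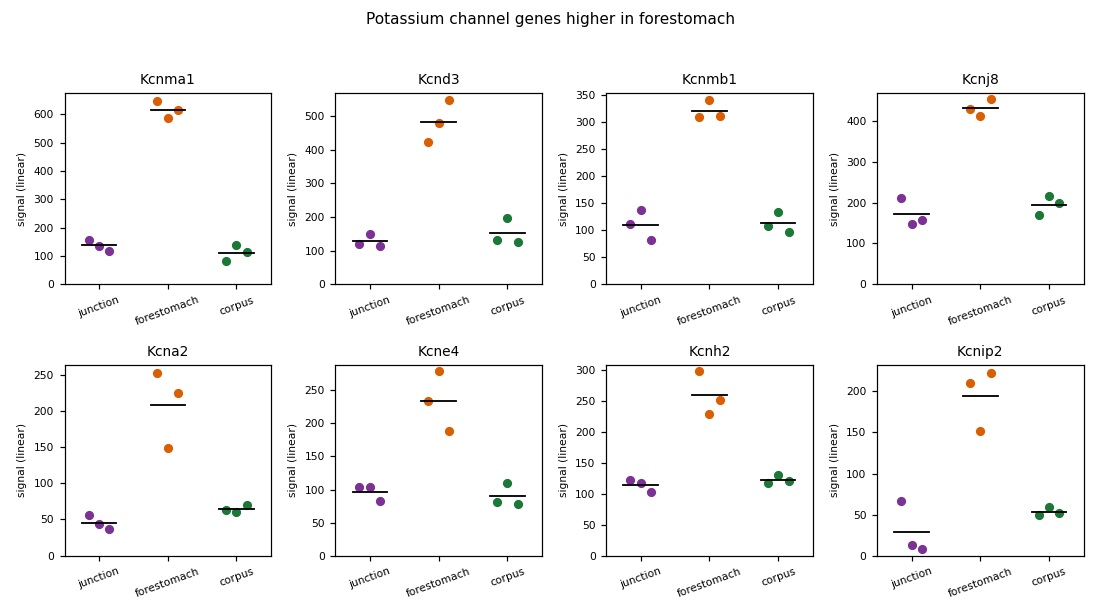
Signal (linear, vertical axes from 0) of 8 potassium channel genes on each of 3 junction, 3 forestomach and 3 corpus arrays; points are arrays and the black bars are means. In all 8 panels the 3 forestomach points lie above the junction and corpus points, as for Kcnma1, whose forestomach mean was 616 against 137 in junction and 111 in corpus.

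The 13 genes lower in forestomach than in corpus had a median log2 difference of -1.23 and reached from -0.51 to -4.13. Kcne1, an accessory subunit that slows the Kcnq1 channel, had 93.8, 90.1 and 55.6 on the junction arrays, 1.0, 2.9 and 2.5 on the forestomach arrays and 219.8, 212 and 167 on the corpus arrays. All forestomach arrays were below 3 signal units, the corpus arrays were highest and the junction lay between, without overlap. Forestomach minus corpus was -4.13 ± 0.19 (log2, adjusted p = 5.80e-07), and it was -6.05 with an added 1 and -2.79 with an added 30.9. The further Kcne1 probe set gave -1.91 (adjusted p = 0.00148), or -2.87 and -1.16 with those constants. Kcnj13, an inward rectifier of transporting epithelia, had 305, 184 and 167 on the junction arrays, 32.5, 18.3 and 22.3 on the forestomach arrays and 470.3, 468 and 385 on the corpus arrays. The zones did not overlap, and forestomach minus corpus was -3.74 (adjusted p = 3.01e-06), or -3.10 with an added 30.9. Kcnn4, the intermediate-conductance calcium-activated channel of secretory epithelia and blood cells, had 579, 411 and 349.8 on the junction arrays, 44.2, 55.7 and 70.5 on the forestomach arrays and 414, 398 and 449 on the corpus arrays. Its forestomach arrays were far below the other 6, among which junction and corpus overlapped, and the difference from corpus was -2.71 (adjusted p = 8.29e-06). A further Kcnn4 probe set gave -3.56, or -2.49 with an added 30.9.

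Of 9 tested two-pore-domain genes, 5 fell in the forestomach and 2 rose (27.6% and 25.2% of all probe sets tested). Kcnk1, a weak inward-rectifying leak channel abundant in epithelia, had 733, 773 and 699.6 on the junction arrays, 141, 129 and 139 on the forestomach arrays and 639, 592 and 702 on the corpus arrays. The forestomach difference from corpus was -2.16 (adjusted p = 6.75e-07), and its further probe set gave -2.20. Kcnk5, a leak channel that opens at alkaline pH, had 136, 143 and 112 on the junction arrays, 34.3, 39.5 and 19.0 on the forestomach arrays and 146, 163 and 140.4 on the corpus arrays, a difference of -2.00 (adjusted p = 4.41e-05), and -1.75 by its further probe set. Kcnk6, related to Kcnk1, had 932, 981 and 943 on the junction arrays, 501, 537 and 554 on the forestomach arrays and 905, 1208 and 1044 on the corpus arrays. It fell by 0.97 on the log2 scale (adjusted p = 1.81e-04), and kept clear signals in the forestomach. Kcnk16, a leak channel best known from the pancreas, had 60.9, 63.0 and 54.6 on the junction arrays, 2.4, 17.9 and 3.8 on the forestomach arrays and 113, 79.6 and 47.5 on the corpus arrays, a difference of -2.36 (adjusted p = 4.62e-04) that was -3.50 for an added constant of 1 and -1.49 for 30.9. Kcnk10, a stretch- and lipid-sensitive leak channel, had 58.2, 70.5 and 59.3 on the junction arrays, 18.9, 19.5 and 19.8 on the forestomach arrays and 66.3, 37.6 and 75.8 on the corpus arrays, and differed by -1.21 (adjusted p = 0.00104). The further Kcnk10 probe set gave -2.49 (adjusted p = 7.92e-06), or -3.42 with an added 1 and -1.62 with an added 30.9.

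Kcnmb2, a BK accessory subunit that makes the channel inactivate, had 48.1, 54.2 and 37.2 on the junction arrays, 38.3, 34.3 and 45.2 on the forestomach arrays and 116, 89.0 and 113 on the corpus arrays. By this probe set the junction and forestomach arrays overlapped and lay below the corpus arrays, with forestomach minus corpus of -1.23 (adjusted p = 2.00e-04). The further probe set had 67.8, 48.2 and 27.6 on the junction arrays, 16.5, 17.3 and 19.6 on the forestomach arrays and 91.1, 61.7 and 77.8 on the corpus arrays. It was called lower in forestomach than corpus (-1.64) and higher in junction than forestomach (adjusted p = 0.0123), the second call being lost without series 1 or 2 (adjusted p = 0.0898 and 0.102). Kcnh3, a pore of the EAG family known mainly from brain, had 245, 207 and 206 on the junction arrays, 166, 117 and 142 on the forestomach arrays and 308, 277 and 241 on the corpus arrays, and its 3 tested probe sets gave -0.92, -1.09 and -1.39, all called. The G-protein-gated rectifier Kcnj9 had 27.6, 15.2 and 41.0 on the junction arrays, 5.3, 7.3 and 8.4 on the forestomach arrays and 41.7, 15.8 and 32.4 on the corpus arrays. Its difference from corpus was -1.19 (adjusted p = 0.00983), or -1.87 with an added 1, and 0.12 and 0.0514 were the adjusted p-values without series 1 and series 3. Its partner subunit Kcnj3 differed by -0.87 (adjusted p = 0.0403), with 50.5, 45.6 and 17.3 on the junction arrays, 28.6, 18.3 and 22.0 on the forestomach arrays and 66.1, 36.8 and 49.9 on the corpus arrays, and the adjusted p was 0.0502 to 0.127 without any 1 forestomach array or without corpus array 1 or 3. Kcnj10, a rectifier of glia and epithelia, had 72.9, 68.5 and 69.7 on the junction arrays, 41.9, 37.2 and 35.7 on the forestomach arrays and 77.5, 52.0 and 49.0 on the corpus arrays. Its difference of -0.51 (adjusted p = 0.0212) was lost without forestomach array 2 or 3 (adjusted p = 0.0556 and 0.0639). This call was also lost with quantile normalization (0.0509), limma's trend and robust options (0.0525) or without any 1 series (0.061 to 0.0916). The Kcnj3 call was lost too with an added 1 (0.0506), median centring (0.0516), no filter (0.0666), quantile normalization (0.0792) or without any 1 series (0.0568 to 0.115).

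Markers of gland cells moved with this group as well. All 12 parietal cell markers were lower in forestomach than corpus, with summed signals of 42020 to 48393 on the junction arrays, 5527 to 7141 on the forestomach arrays and 45284 to 61068 on the corpus arrays, and 3 of them were below the filter level throughout the forestomach. Of 11 chief and mucous cell markers 8 were lower and 0 higher. Their sums were 109896 to 125720 on the junction arrays. On forestomach arrays 1, 2 and 3 they were 1352, 24816 and 32504, against 93678 to 136604 on the corpus arrays. Of 12 enteroendocrine markers 9 were lower and 1 higher, with sums of 10085 to 13164 on the junction arrays, 811 to 962 on the forestomach arrays and 15097 to 17834 on the corpus arrays. Of 6 tuft cell markers 4 were lower and 0 higher, with sums of 2865 to 3117 on the junction arrays, 505 to 676 on the forestomach arrays and 2044 to 2336 on the corpus arrays. In a fit without forestomach arrays 2 and 3, the forestomach is 1 array assumed to vary like the junction and corpus arrays, which give all the spread. Calls from that fit are not counted here. The part of each gland cell type in the values of the 13 member genes that were lower was not tested.

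**Figure D3:**
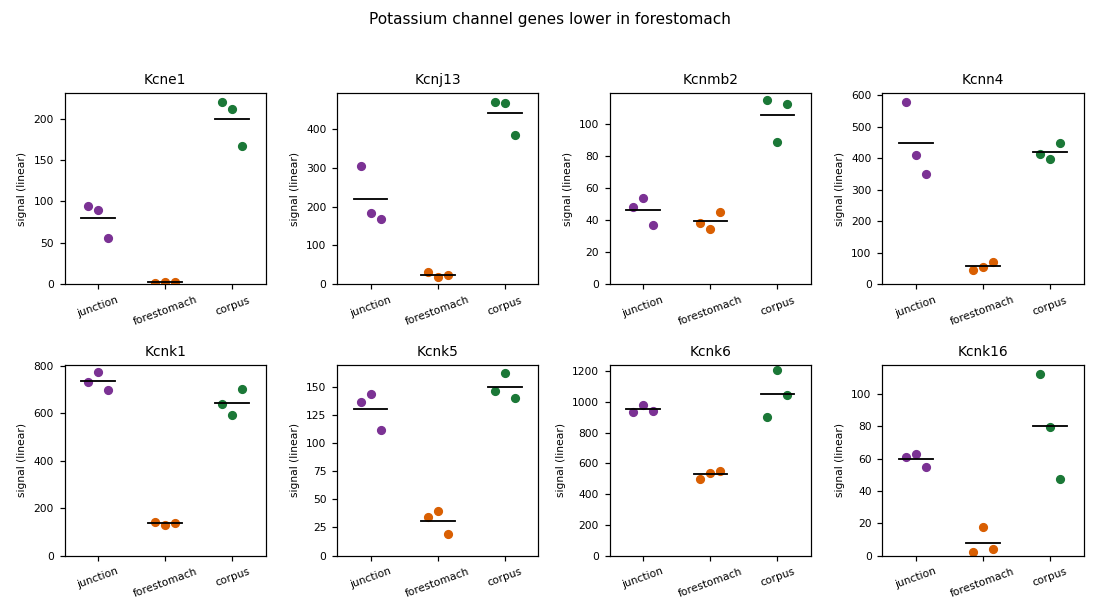
Signal (linear, vertical axes from 0) of 8 potassium channel genes on each of 3 junction, 3 forestomach and 3 corpus arrays; points are arrays and the black bars are means. The forestomach points lie below the corpus points in all 8 panels, and the junction points lie near the corpus for Kcnk1 and Kcnn4, between both zones for Kcne1 and Kcnj13, and near the forestomach for Kcnmb2.

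The stretch just before the gene start is shown for 2 members higher in the forestomach (Kcnd3, Kcnj8), 2 lower there (Kcnj13, Kcnk5) and Kcnk7, which was high in both squamous zones. These groups were set by calls on the same arrays, and shared regulation was not tested. Of the 80 member genes, 61 matched RefSeq promoter windows of build GRCm38.p6, 82 windows in all, and the 250 bases before each start were searched on both strands. The stretches are 120 bases long, 5′ to 3′ on the gene's strand, with TATAAA or GGGCGG in capitals where found. They lie at chr3:105451770-105451889 on the plus strand for Kcnd3, chr6:142571615-142571734 on the minus strand for Kcnj8, chr1:87394730-87394849 on the minus strand for Kcnj13, chr14:20181783-20181902 on the minus strand for Kcnk5 and chr19:5704351-5704470 on the plus strand for Kcnk7.
Kcnd3: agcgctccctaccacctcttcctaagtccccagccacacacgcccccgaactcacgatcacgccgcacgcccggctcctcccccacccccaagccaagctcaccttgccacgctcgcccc
Kcnj8: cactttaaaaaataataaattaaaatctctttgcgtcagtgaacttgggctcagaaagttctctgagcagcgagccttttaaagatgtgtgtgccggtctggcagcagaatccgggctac
Kcnj13: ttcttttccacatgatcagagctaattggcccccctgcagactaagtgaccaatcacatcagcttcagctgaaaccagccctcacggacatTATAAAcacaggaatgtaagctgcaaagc
Kcnk5: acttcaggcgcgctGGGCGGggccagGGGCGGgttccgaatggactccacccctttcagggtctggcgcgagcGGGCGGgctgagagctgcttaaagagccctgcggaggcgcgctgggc
Kcnk7: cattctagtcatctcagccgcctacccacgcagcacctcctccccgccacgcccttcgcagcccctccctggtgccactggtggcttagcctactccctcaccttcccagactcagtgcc
The muscle-type CArG box, written CC, then 6 bases that are each A or T, then GG, was in 0 of 20 windows of the genes higher in forestomach and 0 of 11 windows of those lower, and in 1.47% of all 32851 windows. TATAAA was in 0 of 20 and in 2 of 11 (Kcnj13 and Kcnj9), and in 12.4% of all. GGGCGG was in 5 of 20 and 4 of 11, and in 32.7% of all. AGATAA, a form of the GATA motif, was in 0 of both sets and in 9.99% of all. A CArG box can hold TATAAA, so those 2 searches overlap, and a missing match says only that these letters are not in the window.

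Where the junction strips lay between their neighbours was read from signals on the linear scale, as the share of the way from corpus (0) to forestomach (1), with the median over the 3 series for each probe set. For the 29 member probe sets called higher in the forestomach the median position was -0.04, with 15 below 0, 10 between 0 and 0.5 and 4 above 0.5. Over all 7445 probe sets so called it was 0.29, with 20.1% below 0 and 26.5% above 0.5. For the 22 member probe sets called lower it was 0.28, with 4 above 0.5, against 0.47 over all 8147, of which 46.6% lay above 0.5. These positions are a description of probe sets chosen by the same arrays, and no test was made of them. Beside them, the squamous markers, all 15 measured, were higher in the junction than in the corpus, with a median log2 difference of 5.08, while 0 of 14 smooth muscle markers were called in that comparison.

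In junction against corpus, 4 member probe sets of 3 genes were called higher. Kcne3, an accessory subunit that holds the Kcnq1 channel open in intestinal epithelium, had 137, 152 and 125 on the junction arrays, 21.7, 42.1 and 25.6 on the forestomach arrays and 28.7, 4.0 and 23.4 on the corpus arrays. All 3 junction arrays were at or above 125 and the other 6 arrays at or below 42.1, with forestomach and corpus overlapping. Junction minus corpus was 2.50 ± 0.36 (log2, adjusted p = 0.00216), and 3.18 or 1.80 with an added constant of 1 or 30.9. Junction minus forestomach was 1.93 ± 0.36 (adjusted p = 0.0032), while forestomach and corpus did not differ at the threshold (0.57, adjusted p = 0.213). Of 6 tuft cell markers, 2 were higher in junction than corpus and 0 lower, with a median of 0.53, and 5 were higher in junction than forestomach. Of 10 macrophage markers 6 were higher and 0 lower, with sums of 4422 to 4498 on the junction arrays, 3829 to 5330 on the forestomach arrays and 2585 to 3132 on the corpus arrays. Against forestomach, 0 macrophage markers were higher in junction and 1 was lower. Mast cell markers, 8 measured, had 3 higher in junction than corpus and 0 lower, and 4 higher and 1 lower than in forestomach. Their sums were 1874 to 2115 on the junction arrays, 991 to 1109 on the forestomach arrays and 1062 to 1540 on the corpus arrays. Whether RNA of those cells has a part in the Kcne3 values was not tested.

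Being above both neighbours was tested by taking the larger p of both junction comparisons. It called 41 of all probe sets above both (0.139%) and 11 below both (0.0373%), and 0 members in either direction. Kcne3 came nearest, with an unadjusted p of 5.11e-04 and an adjusted p of 0.125, and it was called with the larger added constant, with limma's trend and robust options, or without corpus array 2, each of which gave a count of 1 above both. At an unadjusted p under 0.05, Kcne3 was the 1 member above both (1.22% of 82, against 1.41% of all probe sets tested), and 9 member probe sets were below both (11%, against 3.73%), 4 of them of Kcnq1ot1, 2 of Kcnma1 and 1 each of Kcnk3, Kcnip2 and Kcna1.

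Kcnk7 and Kcnv1 were high in both zones that hold squamous epithelium. Kcnk7, a two-pore-domain protein that has not given current by itself, had 138, 147 and 90.0 on the junction arrays, 123, 126 and 81.8 on the forestomach arrays and 49.7, 56.9 and 13.1 on the corpus arrays. The junction and forestomach arrays were all above the corpus arrays, by 1.56 (adjusted p = 0.0258) and 1.39 (adjusted p = 0.0153). The junction call was lost without junction array 1 or 2 (adjusted p = 0.0632 and 0.0819), and the forestomach call without series 1 or 2 (adjusted p = 0.0714 and 0.0503). Kcnv1, a silent subunit that alters other voltage-gated pores, was measured by 2 probe sets. The one with the higher mean log2 value had 24.9, 78.6 and 79.2 on the junction arrays, 66.3, 67.4 and 44.0 on the forestomach arrays and 9.2, 6.8 and 20.7 on the corpus arrays, with junction minus corpus of 1.61 (adjusted p = 0.0211), and the other gave 1.64 (adjusted p = 0.00615). Their forestomach minus corpus differences were 1.68 and 2.13, the first of them 2.30 or 1.07 with an added constant of 1 or 30.9, and not called without series 2 (adjusted p = 0.0709). Without junction array 2 or 3 or corpus array 1 or 2, the first had an adjusted p of 0.0674 to 0.0753 in junction against corpus. The other was not called in that comparison without series 1 or 3 (adjusted p = 0.0522 and 0.106). The squamous markers moved with both genes, with summed signals of 77967 to 102995 on the junction arrays, 103071 to 109960 on the forestomach arrays and 3147 to 5773 on the corpus arrays, and their part in the Kcnk7 and Kcnv1 values was not tested.

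**Figure D4:**
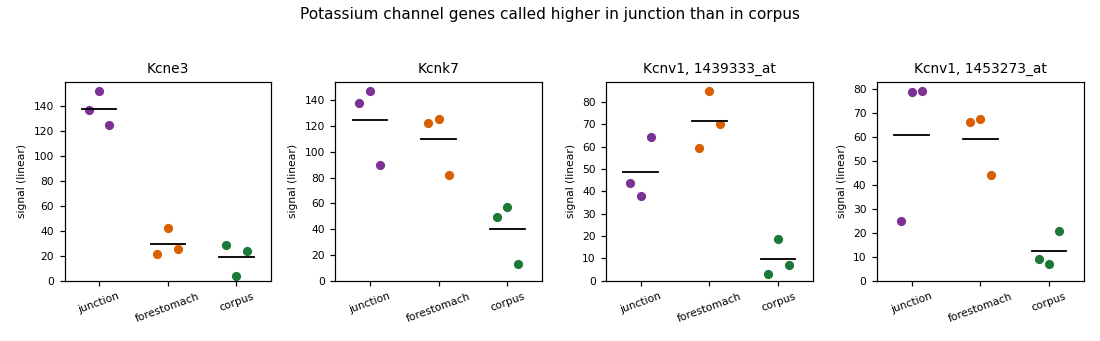
Signal (linear, vertical axes from 0) on each of 3 junction, 3 forestomach and 3 corpus arrays for the 4 probe sets called higher in junction than in corpus; points are arrays and the black bars are means. Kcne3 is high in the junction points alone, with means of 138 in junction, 29.8 in forestomach and 18.7 in corpus, whereas Kcnk7 and both Kcnv1 probe sets are high in junction and forestomach.

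The 9 probe sets lower in junction than corpus were of 6 genes. On the log2 scale, Kcnmb2 fell by 1.04 (adjusted p = 0.00264), and its further probe set was not called (-0.64, adjusted p = 0.105). Kcne1 fell by 1.24 (adjusted p = 0.00308, and 0.0592 without series 2), and its further probe set was not called (-0.45, adjusted p = 0.383). Kcnj13 fell by 1.02 (adjusted p = 0.0183), a call lost without junction array 2 or 3 or corpus array 1 or 2 (adjusted p = 0.0569 to 0.0648). Kcna1 fell by 0.50 (adjusted p = 0.0478, and 0.074 with the series as a block), and its adjusted p was 0.0642 to 0.135 without any 1 array other than junction array 3 or corpus array 1. The second Kcnip2 probe set had 6.1, 6.0 and 15.8 on the junction arrays, 38.4, 31.9 and 29.1 on the forestomach arrays and 15.8, 35.8 and 21.2 on the corpus arrays, with overlapping junction and corpus arrays. It fell by 0.83 (adjusted p = 0.0499, and 0.0806 with the series as a block), and its adjusted p was 0.064 to 0.142 without any 1 array other than those same ones. The other 4 probe sets were of Kcnq1ot1. The count of 9 moved with single arrays, being 11 without junction array 1 and 4 without junction array 2 or corpus array 2, and 5 without forestomach array 3 or corpus array 1 or 3. The count over all probe sets tested, 2929, moved as well. It was 390 to 2832 without 1 array or 1 series, where the members gave 1 to 11. Of 12 parietal markers 7 were lower in junction than corpus, with a median of -0.79, and of 12 enteroendocrine markers 5, with a median of -0.57. Their part in the lower Kcne1, Kcnj13 and Kcnmb2 signals was not tested. The 4 genes left out fell in the forestomach (forestomach minus corpus -6.75 for Kcne2, -6.15 for Kcnj16, -4.96 for Kcnq1 and -4.58 for Kcnj15), and 3 of them fell in the junction, with a median over the 4 of -1.13.

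Kcnq1ot1 is a long non-coding RNA transcribed from within the Kcnq1 gene on the opposite strand, which keeps neighbouring imprinted genes silent on 1 parental chromosome. Its probe sets went opposite ways. Probe set 1457781_at had 169, 115 and 161 on the junction arrays, 381, 363 and 489 on the forestomach arrays and 194, 207 and 191 on the corpus arrays, so the forestomach arrays were highest, with forestomach minus corpus of 1.01 (adjusted p = 9.40e-04). Probe set 1459443_at had 122, 73.8 and 58.1 on the junction arrays, 22.5, 29.9 and 22.0 on the forestomach arrays and 235, 205 and 179 on the corpus arrays, so the corpus arrays were highest, with -2.64 (adjusted p = 2.17e-05). The Kcnq1 probe set 1449464_at, which is not a member, also had its highest signals in the corpus, with 888, 731 and 599.8 on the junction arrays, 14.4, 44.2 and 57.7 on the forestomach arrays and 1469.8, 1348 and 1326 on the corpus arrays. Of the other 3, 1442029_at was called higher in forestomach than corpus (0.65, adjusted p = 0.0278), and 1458161_at and 1441588_at were not called (0.22 and -0.10). In junction against corpus, 1459443_at (-1.25, adjusted p = 0.00748), 1442029_at (-0.88, adjusted p = 0.0218), 1441588_at (-1.01, adjusted p = 0.0409) and 1458161_at (-0.56, adjusted p = 0.0466) were lower. The last had an adjusted p of 0.0794 with the series as a block. Of these calls, that of 1459443_at held without any 1 array but was lost without series 2 or 3 (adjusted p = 0.108 and 0.0655). That of 1442029_at was lost without junction array 1 or 2 or corpus array 1 or 3 (adjusted p = 0.0587 to 0.0745), that of 1441588_at without any 1 array but junction array 1 or 2 (0.0542 to 0.107), and that of 1458161_at without any but junction array 1 or forestomach array 1 (0.057 to 0.143). The forestomach call of 1442029_at was lost without forestomach array 1 or 2 or corpus array 2 or 3 (0.0575 to 0.0922). Because the gene lies inside Kcnq1, which transcript each probe set reads is uncertain, and it was not tested.

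**Figure D5:**
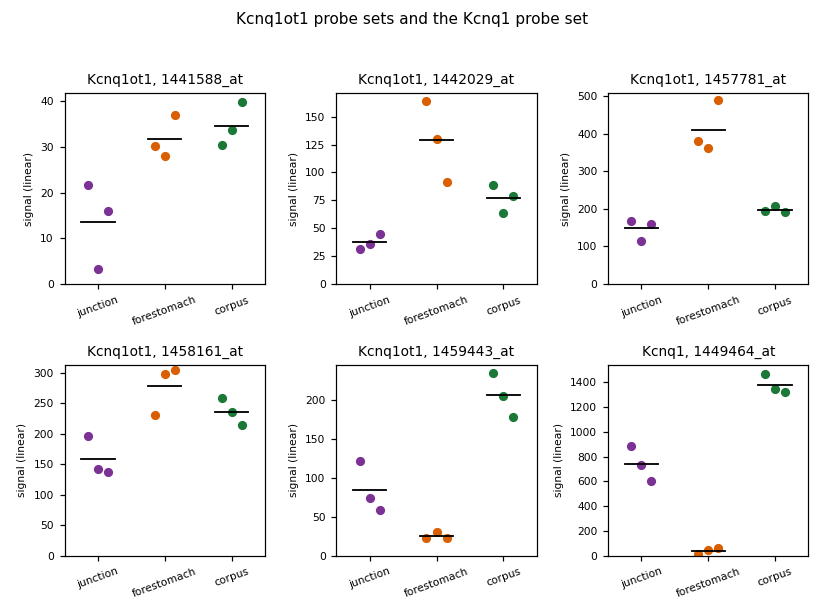
Signal (linear, vertical axes from 0) of the 5 tested Kcnq1ot1 probe sets and the Kcnq1 probe set on each of 3 junction, 3 forestomach and 3 corpus arrays; points are arrays and the black bars are means. Probe set 1459443_at has means of 84.5 in junction, 24.8 in forestomach and 206 in corpus, and Kcnq1 is likewise highest in corpus, whereas 1457781_at is highest in forestomach with a mean of 411.

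A few members were called in junction against forestomach alone. Kcnk3, an acid-sensitive leak channel, had 64.3, 70.7 and 82.2 on the junction arrays, 145, 115 and 177 on the forestomach arrays and 98.6, 129.6 and 97.5 on the corpus arrays. The junction was below the forestomach, with a log2 difference of -0.91 ± 0.17 (adjusted p = 0.00381, and 0.0642 without series 1). Kcnab1, a cytoplasmic subunit of voltage-gated channels, had 32.4, 16.4 and 20.6 on the junction arrays, 40.5, 75.2 and 45.4 on the forestomach arrays and 44.6, 31.6 and 24.7 on the corpus arrays, with junction minus forestomach of -0.94 (adjusted p = 0.021). Its call was lost without junction array 2 or 3 or forestomach array 2 (adjusted p = 0.0586 to 0.0707). The 29 lower and 21 higher calls in this comparison otherwise fell mostly on genes already described. Junction minus forestomach was -1.85 for Kcnd3, -1.96 for Kcna2, -1.49 for Kcnmb1, -1.30 for Kcnj8, 2.88 for Kcne1, 2.76 for Kcnn4 and 2.35 for Kcnk1, each with an adjusted p of 3.60e-04 or less.

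Of the 52 genes tested, 17 had no call in any comparison in any of their probe sets. The matching share over all genes was not counted, so whether 17 is many or few cannot be told. Besides Kcnj11, the small-conductance calcium-activated Kcnn2 had 34.1, 26.1 and 30.1 on the junction arrays, 69.5, 38.7 and 28.3 on the forestomach arrays and 44.6, 28.3 and 20.3 on the corpus arrays, and the cytoplasmic subunit Kcnab2 had 30.1, 36.7 and 32.6 on the junction arrays, 30.5, 31.7 and 48.1 on the forestomach arrays and 34.0, 24.3 and 28.1 on the corpus arrays. Kcns3, a silent subunit, had 89.8, 96.2 and 83.4 on the junction arrays, 172, 63.1 and 143 on the forestomach arrays and 69.1, 69.2 and 57.4 on the corpus arrays, with forestomach minus corpus of 0.76 (adjusted p = 0.0565). Forestomach array 2 stood apart from the other forestomach arrays there, and without it the difference was called (adjusted p = 3.48e-04). Kcng4, a silent subunit, had a forestomach minus corpus difference of -0.76 (adjusted p = 0.0505), with an adjusted p of 0.0236 with the series as a block. Kcna6, a delayed-rectifier pore, was called in forestomach against corpus by a dim probe set (1.65, adjusted p = 0.00132) and not by its 2 others. A missed threshold does not show that these genes were alike between zones. A further 28 genes had no probe set above the filter. Among them were Kcnj2, an inward rectifier of muscle and vessels (signals of 0.7 to 16.7), Kcnn3, a small-conductance channel (1.7 to 9.0), Kcna3, the delayed rectifier of T cells (11.0 to 29.1), and Kcnip3, a calcium-binding partner of A-type pores (2.9 to 61.2 over 2 probe sets). Such probe sets were too dim to be compared here.

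Genes that work with the channels were also read, from lists chosen by function. Of 6 measured subunits that pair with potassium channels, Abcc9 was higher in forestomach than corpus and Lrrc26 lower. Lrrc26, which lets BK channels open at resting voltage in secretory epithelia, had 673, 638 and 553 on the junction arrays, 16.3, 22.6 and 20.4 on the forestomach arrays and 603, 578 and 605 on the corpus arrays, a difference of -4.36 (adjusted p = 1.10e-07). Its zones went the opposite way to Kcnma1, whose pore it joins. Of 11 cation-chloride cotransporters and their kinases, 5 were higher and 4 lower in forestomach than corpus. The potassium-chloride cotransporter Slc12a7 had 855, 844 and 877 on the junction arrays, 197, 193 and 207 on the forestomach arrays and 1328, 1740 and 1344 on the corpus arrays, a difference of -2.81 (adjusted p = 4.17e-07). The kinase Stk39, which switches such cotransporters, differed by -2.86 (adjusted p = 9.35e-07), the sodium-potassium-chloride cotransporter Slc12a2 by -1.16 (adjusted p = 3.21e-05) and the kinase Wnk2 by 1.52 (adjusted p = 1.59e-05).

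Of 11 sodium-potassium pump genes and relatives, 6 were higher and 2 lower in the forestomach. The pump subunit Atp1b1 had 8356, 6971 and 7573 on the junction arrays, 1307, 1432 and 1665 on the forestomach arrays and 9340.2, 9519.9 and 9591 on the corpus arrays, a difference of -2.69 (adjusted p = 4.72e-07), and Fxyd1, a pump regulator of muscle and heart, differed by 1.78 (adjusted p = 6.70e-05). The non-gastric potassium pump Atp12a was higher in both zones with squamous epithelium, with junction minus corpus of 2.11 (adjusted p = 0.00177) and forestomach minus corpus of 1.80 (adjusted p = 8.79e-04). Atp1b3 behaved likewise, with 1.07 and 1.15. Of 7 other cation channels 4 were lower, among them Trpm5, a tuft cell channel (-1.52, adjusted p = 1.65e-04) and 1 was higher, Tmem38a, a potassium-permeable channel of the sarcoplasmic reticulum (1.60, adjusted p = 3.98e-04). Of 17 genes of the KCTD family, which share a domain with voltage-gated pores but form no channel, 9 were higher and 2 lower, with Kctd4 at 3.93 (adjusted p = 7.99e-07), Kctd1 at 3.92 (adjusted p = 8.94e-07) and Kctd14 at -3.47 (adjusted p = 4.55e-07).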

How the data were processed

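Expression was measured in 9 pools of stomach strips, 3 per zone, with biotin-labelled cRNA made from 5 µg of total RNA, on Affymetrix mouse arrays. The authors deposited an intensity per probe set on a linear scale, made with MAS5 per the submitters' processing notes, with version and settings not given in the sources used here. The trimmed mean (2% off each end) of every array is 200.0. Since MAS5 subtracts mismatch probe signals, dim values carry more noise. Gene names came from the 2016 platform annotation, and all 160 member probe sets matched the RefSeq gene table by Entrez ID with no change of symbol. No build is named for the arrays, so no coordinates are given for probe sets.

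Signals were analysed as log2(signal + 9.8), where the constant is the arrays' median 20th percentile, after leaving out 64 control probe sets and those not above the 40th percentile on 3 arrays. limma 3.58.1 in R 4.3.3 fitted 1 mean per zone over 9 arrays (6 residual and 2.69 prior degrees of freedom), with moderated two-sided tests and Benjamini-Hochberg adjustment over 29511 probe sets, and was checked on simulated data. The both-neighbours test was an intersection-union test, the larger p of both junction comparisons where they share a sign.

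Named were, per comparison, up to 12 called genes each way whose arrays do not overlap and up to 4 called genes per channel class, genes with probe sets called opposite ways, a short list of channels named whatever their values, and up to 4 called genes per list of partner genes. A few others were named after their values were seen. The members and lists were chosen with earlier results of these data known. The replicate number of the titles was taken as the series, which would pair arrays across zones. That equal numbers mark strips of the same mice is an assumption, since the titles give the number only. Over 9 pairs of arrays with the same number the correlation of deviations from zone means was -0.0124 to 0.0979. Fits with the series as a block, other constants, filters, scalings and variance options, 1 probe set per gene, and leaving out arrays or series were the alternatives.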

Additional observations from a re-analysis of the deposited data

How the results depend on the processing

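No member reversed its direction among called differences under any alternative run. The replicate block, with the replicate number taken as the series, gave 28 higher and 23 lower member probe sets in forestomach against corpus, 4 and 6 in junction against corpus, and 21 and 31 in junction against forestomach. Over all probe sets tested it gave 7395 and 8120, 2507 and 2701, and 5033 and 5820 in the same order. Besides the calls given with their blocked values in the report, it added junction minus forestomach calls for a further Kcna1 probe set (adjusted p = 0.0411) and a dim Kcna6 probe set (0.0352). It changed no other member call. A stricter filter, with fewer probe sets tested, gave 19 higher and 14 lower in forestomach against corpus, and 12 higher and 19 lower in junction against forestomach. In junction against corpus it gave 1 higher. There were lower calls too, and Kcnk3 (-0.52, adjusted p = 0.0441) and a Kcnma1 probe set (-0.35, adjusted p = 0.0479) were added to them. These counts are not set against a share of all probe sets. A refit on 1 probe set per gene, with p-values adjusted over those alone, gave 18 and 14 (in place of the 18 and 13 genes called in the fit on all probe sets), 4 lower in junction against corpus, and 12 and 17. In junction against corpus, 5 were lower with an added constant of 1. Higher calls of that fit and of the refit in this comparison are not given here. With median centring 5 were lower and 4 higher. That scaling moved the median difference of all probe sets by 0.110 in forestomach minus corpus and 0.104 in junction minus corpus. For these, the cause was not tested. Above both neighbours, 1 member (Kcne3) was called with the larger added constant and 1 with the trend and robust options. For all probe sets tested, leaving out 1 array or 1 series gave 5585 to 7390 higher and 6063 to 8126 lower in forestomach against corpus. It gave 1058 to 2566 and 390 to 2832 in junction against corpus, and 3143 to 4906 and 3267 to 5791 in junction against forestomach. For the members it gave 24 to 31 higher and 19 to 23 lower in forestomach against corpus, 2 to 4 and 1 to 11 in junction against corpus, 16 to 21 and 22 to 30 in junction against forestomach, 0 to 1 above both neighbours and 0 to 0 below both. Of the member calls, 38 of 51, 2 of 13 and 33 of 50 in those 3 comparisons held under every alternative. The matching count over all probe sets was not made. A further alternative, chosen after seeing the data, left out forestomach arrays 2 and 3, with the 1 remaining forestomach array assumed to vary like the other zones' arrays. Leaving that fit aside, 38, 2 and 34 calls held under every alternative. Signals near the filter level limit what can be told of dim members.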
